A study of Mus musculus with 3 samples.

Results

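Stroma6 is a group of fibroblasts that the authors clustered from single-cell RNA profiles of mouse melanomas, and its members were the cells that carry this name in the deposited table of cell clusters. It held 1351 of the 12670 cells of the series, and 1255 of these, 92.9%, came from a single tumor that had progressed on vemurafenib, a drug that blocks mutant BRAF. The untreated tumor gave 83 cells and a tumor that had regressed on vemurafenib gave 13. The other 9 Stroma clusters together held 6617 cells. All tumors grew in C57BL/6 mice of a genetically engineered model, which per the study's methods carried a BrafLSL.V600E allele together with Tyr.CreER, with or without a Rosa26LSL.tdTomato reporter, and were induced by 4-OH tamoxifen on the skin. Tyr.CreER drives Cre in cells of the melanocyte lineage, so the engineered alleles are meant to recombine there and not in fibroblasts, and the untreated tumor carried the same alleles as the treated ones. Each group was 1 tumor, so no difference between tumors could be set against a spread between animals, and no test between groups was possible.

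Fibroblasts build and remodel the extracellular matrix. They secrete fibrillar collagens, the basement membrane collagen IV and proteoglycans, and the enzymes that crosslink or cut them, and they release chemokines and complement proteins that act on immune cells. In skin several fibroblast kinds lie side by side, and in tumors such cells make up much of the stroma. Pericytes, which wrap small vessels, share several transcripts with fibroblasts but are marked by Rgs5, Kcnj8 and Abcc9.

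The 3 libraries held 12413268 to 26948940 unique molecular identifiers (UMIs, tags that let each captured RNA molecule be counted once). Stroma6 gave 5692262 UMIs in the progressed, 473943 in the untreated and 41486 in the regressed tumor, with medians of 3954, 4662 and 1465 UMIs per cell. Levels below are CPM, the UMIs of a gene per 1000000 summed UMIs of the cells named, with exact Poisson 95% intervals, and differences are log2 ratios of CPM with exact conditional 95% intervals. These intervals cover counting error only. A gene was compared where it reached 50 CPM in 1 of the 2 groups, and it is called 2-fold apart when the ratio was at least 2 in either direction. Cluster names were made by the authors from the same RNA counts, so the genes that set Stroma6 apart are a description and not a test.

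The label was checked against Col1a1, the fibrillar collagen chain, Pdgfra, the receptor that marks most fibroblasts, and Fap, a surface protease of activated fibroblasts. Col1a1 stood at 8727 CPM (8651 to 8804) in progressed Stroma6 and at 9060 CPM (8791 to 9335) in untreated Stroma6. Pdgfra stood at 234 CPM (222 to 247) and 274 CPM (229 to 326). Fap stood at 98.7 CPM (90.7 to 107) and 94.9 CPM (69.3 to 127). Over all cells of the cluster these transcripts were present at close levels in both tumors, with overlapping intervals for Pdgfra and Fap and a log2 ratio of -0.05 (-0.10 to -0.01) for Col1a1. Without the cells rich in pericyte transcripts described below, progressed and untreated levels lay further apart. Col1a1 then stood at 8796 CPM (8718 to 8873) and 10593 CPM (10270 to 10924). Pdgfra stood at 236 CPM (223 to 249) and 326 CPM (271 to 388), and Fap at 97.5 and 104 CPM with overlapping intervals. Among the progressed Stroma clusters of at least 20 cells, Fap was highest in Stroma6, while Pdgfra was higher in Stroma2 (380 CPM), Stroma8 (342 CPM), Stroma7 (299 CPM) and Stroma3 (252 CPM). When every cell was thinned to 1000 UMIs, 93.2% of progressed Stroma6 cells held a Col1a1 UMI (91.7 to 94.5), 21.3% a Pdgfra UMI (19.1 to 23.7) and 10.2% a Fap UMI (8.62 to 12.1). The shares in macrophages of the same tumor, which should lack these genes, were 22.6%, 0.904% and 0.904%. Without thinning the Stroma6 shares were 98.7%, 53.9% and 31.6%, at a median of 3954 UMIs against 3450 in macrophages. The defining transcripts of blood vessel and immune cells, Pecam1 and Ptprc, were at or near 0 in progressed Stroma6, where the 6 endothelial markers summed to 58.3 CPM and the 11 immune markers to 175 CPM.

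The share of Stroma6 differed widely between the tumors. It made up 36.7% of the 3422 progressed stromal cells (exact Clopper-Pearson interval 35.1 to 38.3), 3.16% of the 2628 untreated ones (2.52 to 3.90) and 0.678% of the 1918 regressed ones (0.361 to 1.16). Of all cells of a tumor it was 25.9%, 2.03% and 0.349%. Whether this gap exceeds the spread between animals cannot be told with 1 tumor a group.

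**Figure D1:**
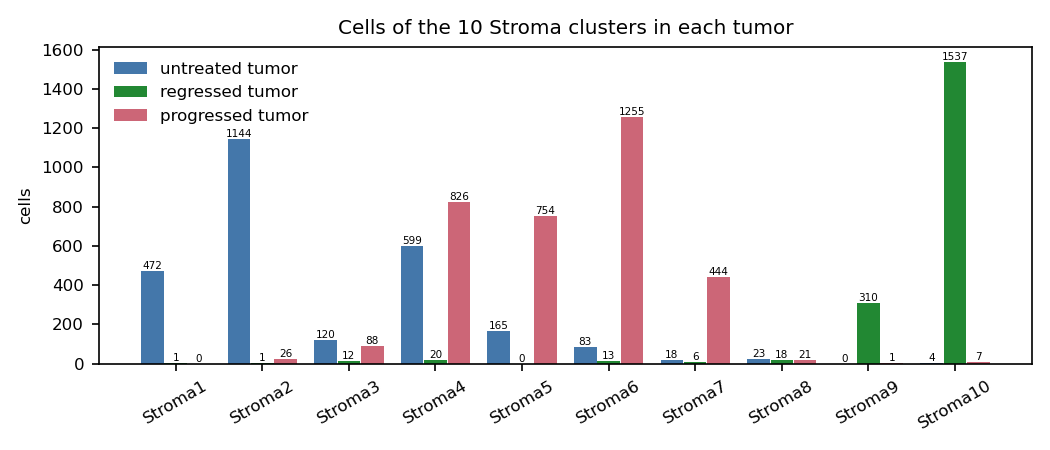
Number of cells (y axis) in each of the 10 Stroma clusters (x axis) in the untreated, regressed and progressed tumor, 1 bar per tumor with the count above it. Stroma6 was the largest Stroma cluster of the progressed tumor, with 1255 cells against 83 and 13.

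Within the progressed tumor, Stroma6 was set against the 2167 cells of the other Stroma clusters. Of 3659 genes compared, 254 (6.94%) were at least 2-fold higher and 195 (5.33%) at least 2-fold lower in Stroma6. Angpt2, Mmp3 and Gdf10, which encode secreted proteins, were among the genes furthest above the other clusters. Angpt2, a ligand of the vascular receptor Tie2, stood at 213 CPM (202 to 226) against 5.46 CPM (4.22 to 6.96), a log2 ratio of 5.29 (4.93 to 5.67). Mmp3, the secreted protease stromelysin-1, stood at 1079 CPM (1053 to 1107) against 67.1 CPM (62.5 to 71.9), a log2 ratio of 4.01 (3.90 to 4.12). Gdf10, a BMP family ligand, reached 988 CPM (962 to 1014) against 72.3 CPM (67.5 to 77.3). All 3 were higher in Stroma6 than in any other progressed Stroma cluster of at least 20 cells, although Gdf10 came close in Stroma2, at 784 CPM. After thinning, 19.1% of Stroma6 cells held an Angpt2 UMI (16.9 to 21.3), 40.2% an Mmp3 UMI (37.5 to 43.0) and 52.9% a Gdf10 UMI (50.1 to 55.7), against 1.51%, 1.51% and 2.41% of macrophages. Unthinned, these were 47.0%, 63.9% and 84.8% of Stroma6 cells.

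Metabolic and signalling genes were among the other leading genes. Inmt, an indolethylamine methyltransferase, stood at 189 CPM (178 to 201) against 8.74 CPM, and Hsd11b1, which regenerates active glucocorticoid, at 196 CPM (185 to 208) against 18.7 CPM. Lpl, lipoprotein lipase, reached 704 CPM (682 to 726) against 79.2 CPM. Mt1, a metallothionein that binds zinc and copper, was the most abundant leading gene, at 5071 CPM (5012 to 5130) against 575 CPM (562 to 589), a log2 ratio of 3.14 (3.10 to 3.18). Tac1, the precursor of substance P, stood at 102 CPM (93.4 to 110.2) against 5.88 CPM, and Prkcb, a protein kinase C isoform, at 108 CPM (99.5 to 117) against 10.2 CPM. The remaining leading genes were Tinagl1, Fmod, Gpnmb and Col6a5, with log2 ratios of 4.28, 4.36, 3.63 and 3.62, and C1qtnf5 with Mfrp. C1qtnf5 and Mfrp have the same span in the annotation and held 5518 UMIs each in progressed Stroma6, so their levels of 969 CPM cannot be told apart and count as 1 measurement.

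The genes furthest below the other clusters were near 0 in Stroma6. Sbspon, a somatomedin B domain protein, stood at 11.2 CPM (8.66 to 14.4) against 456 CPM (444 to 469), a log2 ratio of -5.34 (-5.72 to -4.99). Reln, the secreted glycoprotein reelin, stood at 3.51 CPM (2.15 to 5.43) against 139 CPM, and the ligand Bmp7 at 5.27 CPM (3.56 to 7.52) against 146 CPM. Shisa8, Xkr7, Col9a2, Stra6, Anks1b, Mamdc2 and Nipal1 completed the 10 lowest, with log2 ratios from -5.60 to -4.59. Each of these genes was highest in Stroma4, Stroma5 or Stroma7, the other large Stroma clusters of this tumor. Reln, for example, was at 226 CPM in Stroma5 and 188 CPM in Stroma7 but at 8.26 CPM in Stroma2.

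**Figure D2:**
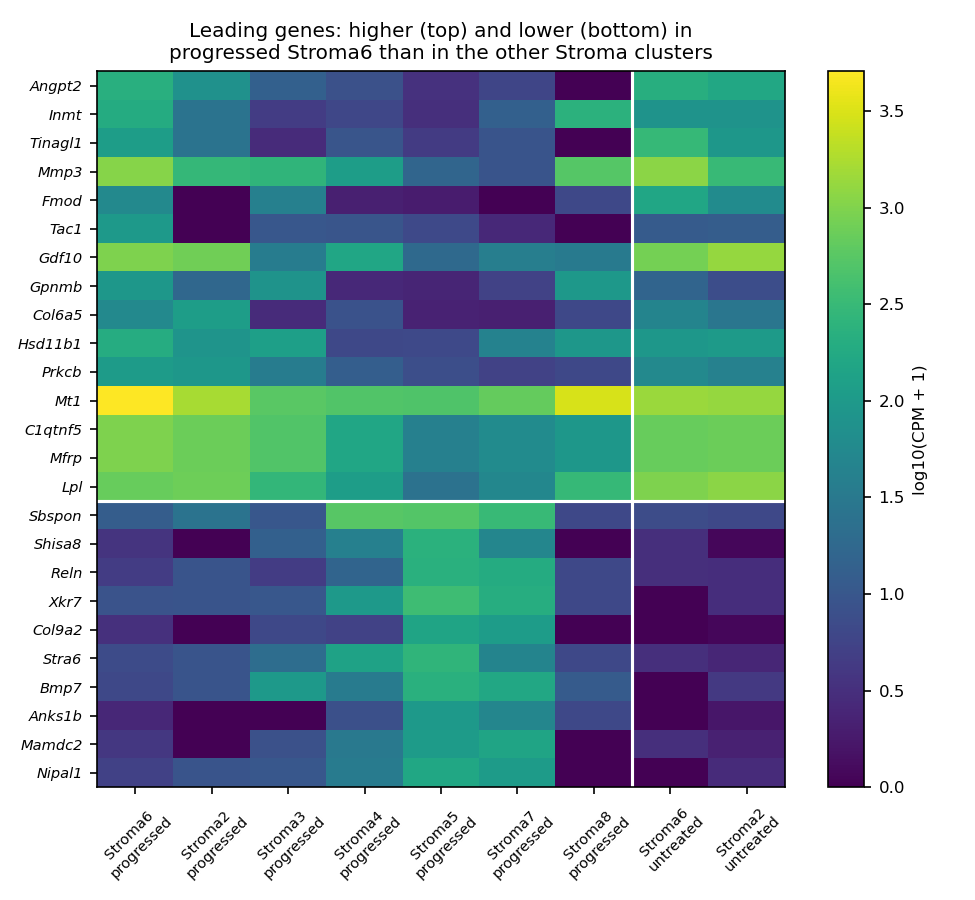
Levels, as log10(CPM + 1) (colour), of the 15 genes furthest above and the 10 furthest below the other Stroma clusters in progressed Stroma6 (rows), in 7 progressed and 2 untreated cell groups (columns). Stroma6 and Stroma2 of the untreated tumor show most of the upper block and little of the lower one.

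The cluster most like Stroma6 within the progressed tumor was Stroma2, with a Pearson r of 0.906 over log2(CPM + 10) of 4836 genes, followed by Stroma4 (0.884) and Stroma3 (0.880). These are correlations across genes of pooled cells, given as a description, and Stroma2 had only 26 cells there. Across all tumors, progressed Stroma6 was closest to Stroma2 of the untreated tumor (r = 0.955 over 6019 genes, 1144 cells) and next to untreated Stroma6 (r = 0.941). Untreated Stroma6 was also closest to untreated Stroma2 (r = 0.956). Libraries, depth and cell numbers differ between these groups. Side by side, the leading genes split into those that Stroma2 shared and those that it did not. Gdf10 stood at 988 CPM in progressed and 865 CPM in untreated Stroma6, and at 784 and 1293 CPM in Stroma2 of the same tumors. Lpl stood at 704 and 968 CPM in Stroma6 and at 776 and 1163 CPM in Stroma2. Mmp3, in contrast, stood at 1079 and 1141 CPM in Stroma6 and at 297 and 311 CPM in Stroma2. Against Stroma2 of the progressed tumor alone, Angpt2, Inmt, Tinagl1, Mmp3, Gpnmb, Hsd11b1 and Mt1 stayed at least 2-fold higher in Stroma6, with log2 ratios from 1.25 for Hsd11b1 to 2.93 for Inmt. The Angpt2 value there rests on 74.3 CPM in 26 cells, and in the 1144 untreated Stroma2 cells Angpt2 stood at 166 CPM, close to both Stroma6 levels. The ratios for Lpl (-0.14) and Col6a5 (-1.08) turned negative. Fmod and Tac1 had no UMI in those 26 cells. Inmt, Gpnmb, Tinagl1 and Hsd11b1 were found in only 1, 2, 3 and 4 of them. Unthinned, these genes were found in 19.1%, 2.62%, 25.3% and 25.4% of untreated Stroma2 cells, in the same order. In progressed Stroma6 the shares were 28.4%, 25.1%, 25.0% and 33.6%. Many differences named below were also small or turned against Stroma2, with log2 ratios of 0.03 for Col4a1, 0.14 for Cxcl12, -0.27 for C1ra, -0.18 for Tgfbi, 0.85 for Apod, 2.23 for Ccl2, 0.27 for Ccl11 and 1.03 for Dusp6.

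Matrix genes differed in both directions. Over all genes compared, 6.94% were at least 2-fold higher and 5.33% at least 2-fold lower. With equal weight per cluster the 254 higher genes fell to 110, so counts of higher genes depend on cluster size. Of 19 collagen chains, 18 reached 50 CPM, and 8 were at least 2-fold higher and 3 at least 2-fold lower than in the other clusters, with a median log2 ratio of 0.74 against -0.12 over all genes compared. The basement membrane chains Col4a1 and Col4a2 stood at 2211 CPM (2172 to 2250) and 2187 CPM (2148 to 2225) against 570.3 and 655 CPM. Col6a3, of the beaded microfibrils, stood at 2060 CPM (2023 to 2098) against 551 CPM, while the main fibrillar chains differed less, with log2 ratios of 0.43 for Col1a1 and 0.71 for Col3a1. The 3 lower chains were Col8a1, Col11a1 and Col14a1. Of 15 crosslinking and processing genes, 11 reached 50 CPM and the crosslinking enzymes Lox, Loxl1 and Plod2 were at least 2-fold higher, though Lox turned to -0.38 with equal weight per cluster, Loxl1 at 405 CPM (388 to 422) against 134 CPM. Among the small leucine-rich proteoglycans, Bgn, Podn and Fmod of 8 genes were at least 2-fold higher, Bgn at 5030 CPM (4972 to 5089) against 2096 CPM. Of 16 matrix glycoprotein genes at 50 CPM, 3 were at least 2-fold lower. Tgfbi stood at 523 CPM (505 to 542) against 3347 CPM, Fn1 at 431 CPM against 980.3 CPM and Vcan at 74.7 CPM against 196 CPM. Dpt alone was at least 2-fold higher, with a log2 ratio of 2.19 that turned to -0.52 when each cluster had equal weight. The 16 genes had a median log2 ratio of 0.34. The list sum stood at 0.01 (-0.005 to 0.02), and at -0.70 without Sparc, which held 51.2% of its UMIs. Of 13 proteases and inhibitors at 50 CPM, 7 were at least 2-fold higher and 0 lower. They included Mmp3, the aggrecanase Adamts5 at 225 CPM (213 to 237) against 41.5 CPM, and the inhibitor Timp3 at 2511 CPM (2470 to 2552) against 931 CPM.

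Secreted immune factors differed in both directions, again beside 6.94% of all genes compared at least 2-fold higher and 5.33% at least 2-fold lower. Of 12 inflammatory fibroblast genes at 50 CPM, 7 were at least 2-fold higher and 3 at least 2-fold lower. Cxcl12, the ligand of Cxcr4, stood at 1004 CPM (978 to 1030) against 119.8 CPM (114 to 126), and Cxcl14 at 3588 CPM (3539 to 3637) against 787 CPM. The monocyte chemokine Ccl2 stood at 425 CPM (408 to 442) against 1196 CPM and the eosinophil chemokine Ccl11 at 888 CPM (864 to 913) against 2651 CPM. Of 7 complement genes at 50 CPM, C1ra, C2, C4b and Cfb were at least 2-fold higher and 0 lower, though C4b turned to -0.55 with equal weight per cluster and to -0.040 against Stroma2, with the protease Cfb at 199 CPM (188 to 211) against 51.1 CPM. Antigen presentation genes summed to 5202 CPM against 2598 CPM, a log2 ratio of 1.002 (0.98 to 1.02), with B2m and Tapbp of 5 genes at least 2-fold higher. The TGF-beta response list stood lower, at -1.45 (-1.48 to -1.41), but Tgfbi held 73.6% of its UMIs, and without it the ratio was 0.30. The adipogenic list likewise stood at -2.18, with 88.9% of its UMIs in Apod, and at 0.84 without it. Apod, a lipid carrier, was at 3657 CPM (3607 to 3707) in Stroma6 and 33192 CPM in the other clusters. Cd34, found on adventitial fibroblasts, stood at 138 CPM against 527 CPM, and S100b, known from Schwann cells, at 19.5 CPM against 136 CPM. Cd34 held 43.3% of the UMIs of the adventitial list, which stood at -0.21 with it and at 0.66 (0.60 to 0.72) without it. Ly6a of that list was at least 2-fold higher, but its sign turned with equal weight per cluster. The MAPK target genes of the study, read-outs of the pathway that vemurafenib acts on, were close in sum (log2 0.17), with Phlda1 at 1450 CPM against 884 CPM and Dusp6 at 101 CPM against 233 CPM. Phlda1 held 67.7% of the UMIs of this list, and without it the log2 ratio was -1.30 (-1.38 to -1.22). Dusp6 and Etv4 were at least 2-fold lower.

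Some surface proteins shared with pericytes were higher in Stroma6. Pdgfrb stood at 466 CPM (448 to 484) against 201 CPM and Thy1 at 1816 CPM (1781 to 1851) against 384 CPM. Notch3 stood at 95.2 CPM (87.4 to 104) against 11.4 CPM, and the muscle filament gene Des at 99.3 CPM (91.2 to 108) against 10.9 CPM. Cspg4, of the pericyte and smooth muscle list, was at least 2-fold lower than in the other clusters. The list had a log2 ratio of 1.20 (1.11 to 1.30), and of 1.90 without Mcam, which held 31.5% of its UMIs. The 8 pericyte and smooth muscle markers together were at 346 CPM (330 to 361) in Stroma6, and between 36.8 and 160 CPM in the other progressed Stroma clusters of at least 20 cells. Untreated Stroma2 had a like level, at 333 CPM (318 to 348), with Notch3 at 102 CPM and Des at 133 CPM. The defining pericyte genes Rgs5 and Kcnj8 were low, at 30.04 CPM (25.7 to 34.9) and 26.9 CPM (22.8 to 31.5). Rgs5 lay in 13 of 1255 cells and Kcnj8 in 101. Cells with at least 4 UMIs of Rgs5, Kcnj8, Abcc9 and Myh11 together, a limit set after these values had been seen, numbered 10 of 1255 progressed, 11 of 83 untreated and 5 of 13 regressed Stroma6 cells. In these cells lay 54.4%, 93.4% and 100% of all Rgs5, Kcnj8, Abcc9 and Myh11 UMIs found in Stroma6 of each tumor. In the 10 progressed cells Col1a1 stood at 2373 CPM and Dcn at 3213 CPM, against 8796 and 14737 CPM in the other 1245. In the 11 untreated cells Col1a1 stood at 2555 CPM and Pdgfra at 55.3 CPM, against 10593 and 326 CPM in the other 72. Without these cells Notch3 stood at 87.9 CPM and Des at 90.7 CPM in progressed Stroma6.

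**Figure D3:**
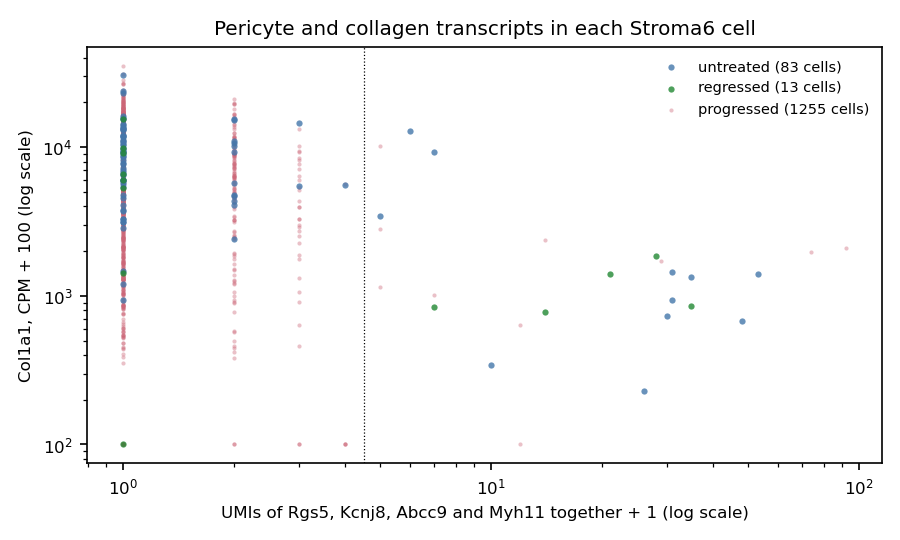
Each point is a Stroma6 cell, with the summed UMIs of Rgs5, Kcnj8, Abcc9 and Myh11 plus 1 (x axis, log scale) and Col1a1 as CPM plus 100 (y axis, log scale), coloured by tumor. The dotted line marks the limit of 4 UMIs, reached by 10 of 1255 cells in the progressed tumor, 11 of 83 in the untreated and 5 of 13 in the regressed one.

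Cells of progressed Stroma6 also differed among themselves. Over 3193 genes and 1249 cells thinned to 1000 UMIs, the ratio of variance to mean had a median of 1.03, close to that of random sampling, and reached 2 in 67 genes (2.10%). The highest ratios were those of abundant transcripts, Malat1 (16.6), Cst3 (13.5), Gsn (11.8), Mgp (11.3), Mt1 (9.28), Mt2 (6.61) and Dcn (6.53). Col1a1 (4.43) had a ratio close to those of the less abundant Acta2 (4.72), Ccl2 (4.61) and Mmp3 (4.33). The tenth of cells with the most UMIs of a gene held 79.7% of Ccl2, 57.8% of Mmp3 and 53.7% of Mt2 UMIs, against 25.8% of Col1a1 UMIs. Cells share their library, and these values carry no test.

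Progressed Stroma6 was then compared with untreated Stroma6, to ask how the same named cluster differed between the tumors. Of 3664 genes compared, 104 (2.84%) were at least 2-fold higher and 133 (3.63%) at least 2-fold lower in the progressed cells, 6.47% in all. With TMM scaling, which shifts the log2 ratios by 0.15, the split was 151 higher and 94 lower. The other Stroma clusters of these tumors gave 124 higher (3.39%) and 168 lower (4.59%) of 3659, 7.98% in all. The leading genes of the cluster split between the tumors. Angpt2 stood at 213 CPM (202 to 226) and 207 CPM (168 to 252), and Gdf10, Col6a5, C1qtnf5 and Lpl were also less than 2-fold apart. Mmp3 stood at 1079 CPM (1053 to 1107) and 1141 CPM (1047 to 1242), but 1 untreated cell held 217 of the 541 UMIs. With the cell of most UMIs left out for each gene, the Mmp3 log2 ratio was 0.50. Tac1 was higher in the progressed cells, at 102 CPM against 10.5 CPM (3.43 to 24.6, 5 UMIs), as were Gpnmb, Mt1, Inmt and Hsd11b1, Inmt at 189 against 80.2 CPM and Hsd11b1 at 196 against 90.7 CPM. Prkcb stood at 108 against 54.9 CPM, just under 2-fold. Tinagl1 and Fmod were lower, at 113 against 304 CPM and 55.2 against 154 CPM, but the Tinagl1 log2 ratio turned positive without the cells with at least 4 pericyte UMIs.

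Both metallothioneins were higher in progressed Stroma6. Mt2 stood at 2065 CPM (2028 to 2102) against 335 CPM (285 to 392), a log2 ratio of 2.62 (2.40 to 2.86), and Mt1 at 5071 CPM (5012 to 5130) against 1422 CPM (1317 to 1534), a log2 ratio of 1.83 (1.72 to 1.95). In each of the other 5 Stroma clusters with at least 20 cells in both tumors the ratio was also above 0, from 0.13 in Stroma8 to 1.79 in Stroma5 for Mt1 and from 0.25 to 2.02 for Mt2. The Mt1 interval in Stroma8 (-0.07 to 0.33) spans 0. Pooled over all other Stroma clusters Mt1 was lower in the progressed tumor, at 575 against 783 CPM. The clusters that make up this pool differed between the tumors.

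The 250 bases before the RefSeq start of Mt2, the gene furthest above untreated Stroma6, and of B2m, the shared light chain of MHC class I and the most abundant gene of the antigen presentation list, are shown. Capitals mark in Mt2 the letters TGCACNC or TGCGCNC, the core of the metal response element, where N is any base, and in B2m the letters TTTC followed after any 2 bases by TTTC, the core of the interferon-stimulated response element, on either strand. The Mt2 window is chr8:94172368-94172617 and the B2m window chr2:122147437-122147686, both on the plus strand of GRCm38.p6.
Mt2: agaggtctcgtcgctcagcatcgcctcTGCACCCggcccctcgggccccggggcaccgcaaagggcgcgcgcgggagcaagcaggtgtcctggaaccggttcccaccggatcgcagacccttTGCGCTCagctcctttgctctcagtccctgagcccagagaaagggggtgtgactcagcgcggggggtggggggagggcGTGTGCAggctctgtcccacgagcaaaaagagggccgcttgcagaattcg
B2m: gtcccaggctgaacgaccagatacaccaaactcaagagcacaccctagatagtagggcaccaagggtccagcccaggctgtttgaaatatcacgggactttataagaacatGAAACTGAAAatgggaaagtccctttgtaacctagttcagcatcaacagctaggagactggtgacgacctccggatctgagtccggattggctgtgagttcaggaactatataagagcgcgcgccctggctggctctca
Mt2 held 3 matches to the metal response element core, which 21.4% of 32851 RefSeq promoters of this length hold, and B2m held 1 match to the response element core, which 2.98% hold. Of the other motifs searched on both strands, TGANTCA (6.75% of promoters) was found once in Mt2 and TATAAA (12.4%) once in B2m, and CAGACA (17.1%) and GGGCGG (32.7%) in neither. In the window before H2-D1, the response element core was not found and TATAAA was found once. A match describes the letters and not a bound site. The window of Mt1 held 1 match to the metal response element core and 2 to GGGCGG, and its letters are not shown because it overlaps an upstream start of the same gene.

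MHC class I transcripts were higher in progressed Stroma6. B2m stood at 3520 CPM (3472 to 3569) against 1549 CPM (1439 to 1665), H2-D1 at 811 CPM (787 to 834) against 241 CPM (198 to 289) and H2-K1 at 462 CPM (444 to 480) against 158 CPM (125 to 198), with log2 ratios of 1.18, 1.75 and 1.54. Reads of H2-D1 and H2-K1, which are close paralogs, could be assigned to either, so the split between them is uncertain. They and B2m, each at least 2-fold higher, were 3 of the 5 antigen presentation genes at 50 CPM, and 0 were at least 2-fold lower. The shares over all genes compared were 2.84% and 3.63%. The peptide loading gene Tapbp (0.32, -0.01 to 0.66) and the immunoproteasome gene Psmb8 (0.37, -0.12 to 0.90) had intervals that span 0. B2m was above 0 in all 5 other clusters compared, with log2 ratios from 0.46 to 1.67. H2-D1 ran from -0.03 in Stroma2 to 2.30 in Stroma3, and H2-K1 from -0.40 to 2.18 in the same clusters. The summed antigen presentation list had a log2 ratio of 1.21 in Stroma6, below the 1.69 of Stroma3 and the 1.64 of Stroma8. It stood at 0.36 in Stroma2, 0.53 in Stroma4 and 0.41 in Stroma5. As an immune cell transcript, Cd74 stood at 125 CPM in progressed and 50.6 CPM in untreated Stroma6, and its part in these values was not tested.

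Secreted proteins and matrix genes were also apart. Gsn, which severs actin filaments and has a secreted form, stood at 10962 CPM (10877 to 11049) against 2986 CPM (2832 to 3145), and Thbs1, the matrix protein thrombospondin 1, at 758 CPM (735 to 781) against 189.9 CPM (153 to 233). Fgl2, a fibrinogen-like protein, stood at 596 CPM (576 to 617) against 135 CPM (104 to 172), and the cytokine Metrnl at 219 CPM (207 to 232) against 44.3 CPM (27.4 to 67.7). Nr4a3, a nuclear receptor induced early by many signals, stood at 121 CPM against 14.8 CPM (7 UMIs), and Gpnmb and Bpgm completed the 10 furthest apart, with log2 ratios of 2.60 and 2.48. Mgp, the matrix calcification inhibitor, stood at 7695 CPM (7623 to 7767) against 3156 CPM (2999 to 3321), with log2 ratios in the other 5 clusters from 0.14 (-0.02 to 0.30) in Stroma3 to 1.16 in Stroma8. It carried the dermal fibroblast list, whose log2 ratio was 1.19 with it and -0.24 without it. Timp3 and Cxcl14 had log2 ratios of 1.04 (0.92 to 1.16) and 1.10 (0.996 to 1.20), and Inhba, the activin A subunit, of 2.204 (1.27 to 3.34).

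Genes of matrix assembly stood lower. Over all genes compared between the tumors, 2.84% were at least 2-fold higher and 3.63% at least 2-fold lower. Of 19 matrix glycoprotein genes, 5 were at least 2-fold lower, namely Fn1, Postn, Fbn1, Vcan and Cthrc1, and Thbs1 alone was higher. Postn, periostin, stood at 483 CPM (465 to 501) against 1443 CPM (1337 to 1556), Fn1, fibronectin, at 431 CPM (414 to 448) against 941 CPM (856 to 1033) and Cthrc1 at 19.0 CPM (15.6 to 22.9) against 152 CPM (119 to 191). Col14a1 stood at 125 CPM (116 to 135) against 392 CPM (338 to 453), the 1 collagen of 17 that was 2-fold apart. Without the cells with at least 4 pericyte UMIs, the log2 ratios of Postn, Fn1, Cthrc1 and Col14a1 were -1.69, -1.36, -3.29 and -1.93. Without cells that held at least 2 UMIs of the immune and endothelial markers they were -0.36, -0.16, -0.71 and -0.23, but S100a8, which most untreated cells held, is among those markers and only 24 untreated cells were left. With S100a8 not counted, 65 untreated and 927 progressed cells were left and the ratios were -1.89, -1.45, -3.76 and -2.09. Sfrp2, an extracellular Wnt modulator, had 20 progressed and 40 untreated UMIs, of which 22 of the 40 lay in 1 cell, and Mest had 50 and 71 UMIs, the latter in 15 of 83 cells. Ccn3 and Ednrb rested on 33 and 25 untreated UMIs in 10 and 5 cells.

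**Figure D4:**
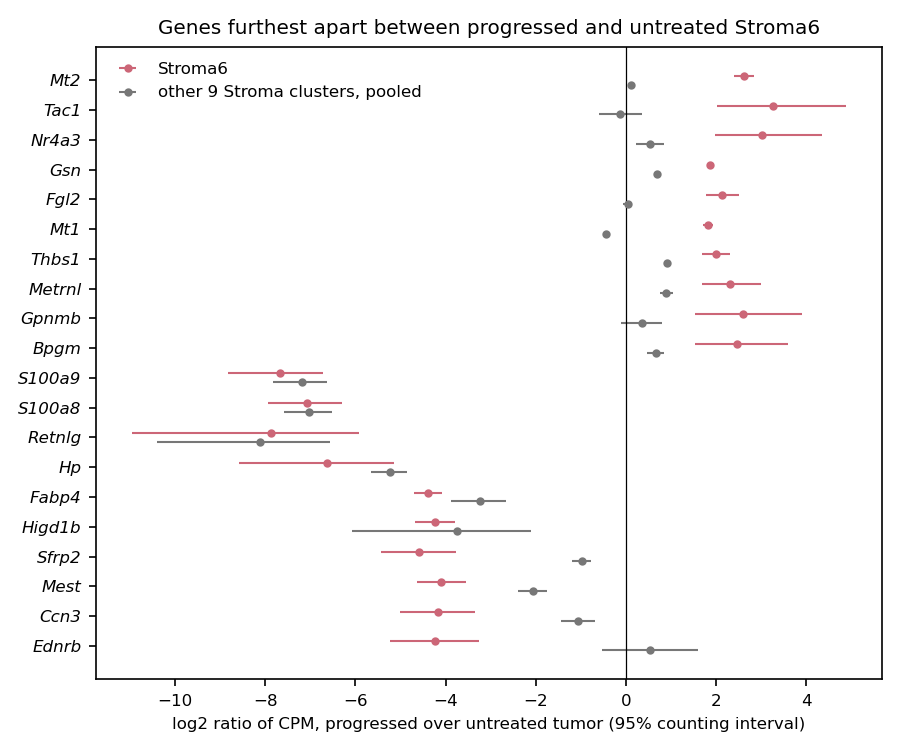
Log2 ratio of CPM, progressed over untreated tumor (x axis), with 95% counting intervals, for the 10 genes furthest above and the 10 furthest below 0 in Stroma6 (y axis), in Stroma6 and in the other 9 Stroma clusters pooled. The neutrophil genes S100a8, S100a9 and Retnlg lie near each other in both, while Mt2 and Mt1 differ.

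The lowest of all were genes of other cell types. The neutrophil genes S100a8 and S100a9 stood at 2.64 CPM (1.47 to 4.35) and 1.58 CPM (0.723 to 3.001) in progressed Stroma6, against 354 CPM (303 to 412) and 323 CPM (274 to 378) in untreated Stroma6. S100a8 was at 309 to 382 CPM in every untreated Stroma cluster of at least 10 cells and was found in 62 of the 83 untreated Stroma6 cells. The log2 ratio in the other Stroma clusters, -7.03, was close to that in Stroma6, -7.07. Retnlg and Hp had 2 and 4 progressed UMIs against 39 and 33 untreated ones. Pericyte and contractile genes came next, with 5 of 7 pericyte markers and 5 of 8 contractile genes at least 2-fold lower. The share over all genes compared was 3.63%. Acta2, smooth muscle actin, stood at 78.9 CPM (71.8 to 86.5) against 627 CPM (557 to 702), Fabp4 at 25.5 CPM (21.5 to 29.97) against 534 CPM (470.1 to 604) and Higd1b at 12.6 CPM against 238 CPM. Without the cells with at least 4 pericyte UMIs the contractile list moved from a log2 ratio of -0.83 to 0.25 and the pericyte list from -1.78 to -0.08. Acta2 moved from -2.99 to -0.10 and Fabp4 from -4.39 to -0.81, and 11 untreated cells were left out there. Those cells were picked by Rgs5, Kcnj8, Abcc9 and Myh11, which all belong to the pericyte list. The move of that list follows from this choice, and Myh11 also belongs to the contractile list. Of 7 interferon response genes, 4 were at least 2-fold lower, but 1 untreated cell held 141 of the 161 Cxcl10 UMIs, and 1 held 114 of the 174 Ifit3 UMIs. With the cell of most UMIs left out for each gene, the Cxcl10 ratio moved from -3.07 to -0.46 and the Ifit3 ratio from -2.94 to -1.67. The whole interferon list stood at -0.96, at -0.19 without those cells and at -0.24 without cells that held immune or endothelial UMIs other than S100a8.

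**Figure D5:**
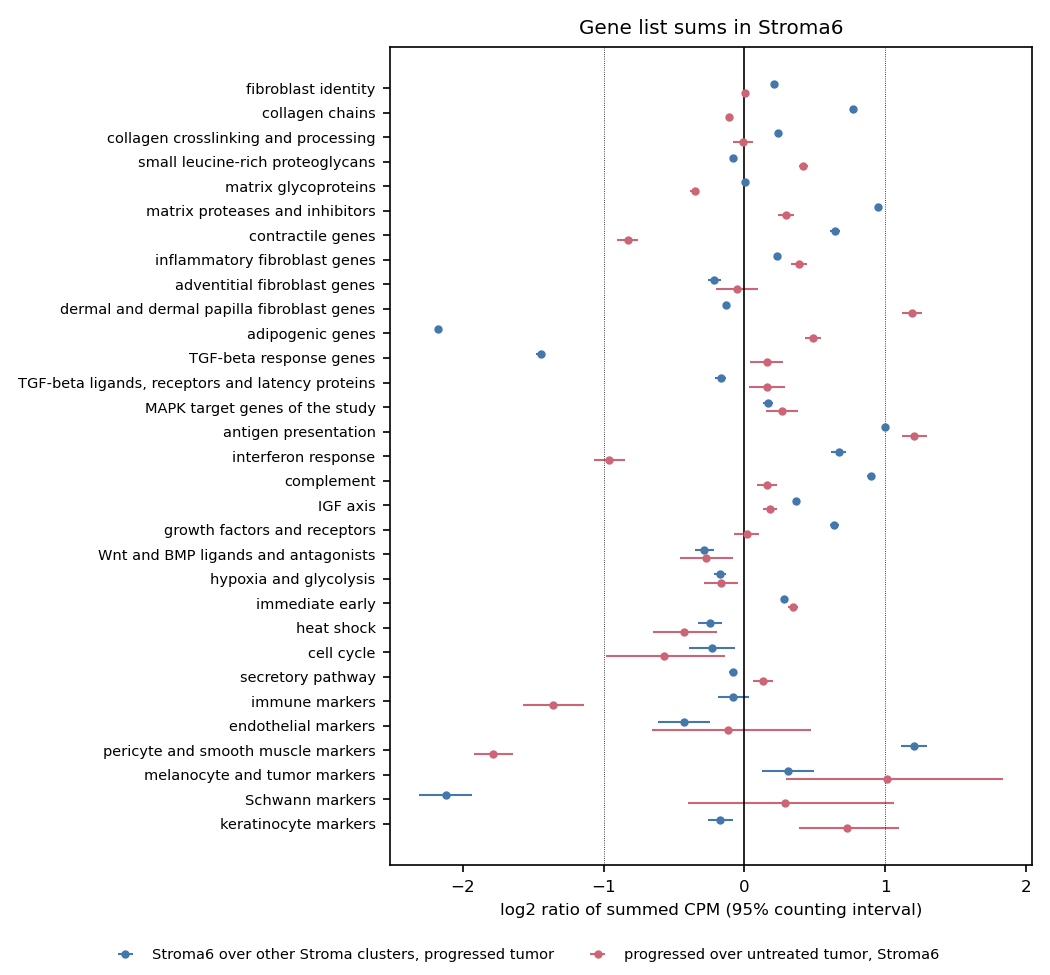
Log2 ratio of the summed CPM of each gene list (x axis, rows are lists), with 95% counting intervals, for Stroma6 over the other Stroma clusters of the progressed tumor and for progressed over untreated Stroma6. Dotted lines mark 2-fold. The contractile list stood above 0 in the first comparison (0.64) and below 0 in the second (-0.83).

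The 11 immune markers stood at a log2 ratio of -1.36 (-1.57 to -1.14), with S100a8 lower and Cd74 higher, and the 8 melanocyte and tumor markers at 1.01 (0.30 to 1.84), which became 0.08 without Mlana. The keratinocyte markers stood at 0.73 and the endothelial markers at -0.12 (-0.66 to 0.47). The lists not yet named differed less than 2-fold between progressed and untreated Stroma6. Collagen chains summed to 48973 and 52924 CPM, a log2 ratio of -0.11 (-0.13 to -0.09), and crosslinking genes to 3948 and 3977 CPM, a log2 ratio of -0.01 (-0.08 to 0.06). Without the cells with at least 4 pericyte UMIs, Col1a1 stood at 8796 against 10593 CPM and Col3a1 at 12071 against 18334.5 CPM. Complement genes stood at 0.16 (0.09 to 0.23), TGF-beta response genes at 0.16 (0.04 to 0.27) and growth factors and their receptors at 0.02 (-0.07 to 0.10). MAPK target genes stood at 0.27 (0.15 to 0.38), but at -0.59 (-0.82 to -0.36) without Phlda1. Spry2 and Spry4 of that list were at least 2-fold lower. Cell cycle genes were low in both, at 76.6 CPM (progressed) and 114 CPM (untreated) for 16 genes together.

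The 13 regressed Stroma6 cells held too few UMIs for comparisons gene by gene. Col1a1 stood at 6436 CPM (267 UMIs), Mmp3 at 1036 CPM (43 UMIs, 34 of them in 1 cell) and H2-D1 at 1205 CPM (50 UMIs). Rgs5 stood at 1711 CPM (71 UMIs), all in the 5 cells with pericyte UMIs, which held 19743 of the 41486 UMIs. In the other 8 cells Col1a1 stood at 11268 CPM and Pdgfra at 460 CPM. Hbb-bs, a haemoglobin transcript, was at 1446 CPM and Xist, which silences an X chromosome in female cells, had 0 UMIs, against 1714 and 1530 CPM in progressed and untreated Stroma6.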

How the data were processed

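Single cells of 3 mouse melanomas were profiled by droplet capture of 3' transcript ends (Chromium Single Cell 3' v2). The deposited count tables hold UMI counts per Entrez ID and cell, and the deposited cell table holds each cell's tumor and cluster label with total UMI and gene counts. The submitters' processing notes name GSNAP, Seurat 2.2.0 and the build GRCm38 (mm10), and the authors clustered the cells. The GSNAP version and the annotation release are not given in the sources used here. Of 36530 features, 31051 were matched to a symbol, and the rest (3.74% of UMIs) stayed in the totals. Detected genes matched the deposited number in all 12670 cells, while summed UMIs exceeded the deposited totals by 4.42% to 6.09%. Reads that overlap 2 genes can be counted for both, and of features with the same counts in every cell 1 was kept (79 shared them).

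UMIs were summed per cluster and tumor (Python 3.11.15, numpy 2.4.6, scipy 1.17.1). A gene with 0 UMIs was set to 3 UMIs over the group for its ratio. TMM factors came from edgeR 4.0.16. Cells were not treated as replicates and no doublet caller was run. Cells carry running IDs and not barcodes, so barcodes shared between libraries could not be counted. Thinning to 1000 UMIs left out 6 of 1255 progressed and 2 of 83 untreated Stroma6 cells. A gene of the complement list and an engineered allele that all the mice carried are not reported here. The 33 gene lists, the members and the rules were chosen with earlier results of these data known. Named genes were the 15 highest and 10 lowest in Stroma6 against the other Stroma clusters and the 10 highest and 10 lowest between tumors, ranked by the interval bound nearest 0, up to 4 members of each list, and the 3 label markers. Other genes, the metal and interferon response motifs, and the pericyte UMI limit were chosen after values had been seen. The ratio and interval functions were tested on simulated counts. Alternatives changed the filter, the scaling, the comparison group, the weight of cells and the cells kept, and 3 of them were added after the data had been seen. These 3 left out cells with at least 4 pericyte UMIs, the cell with the most UMIs of each gene, or cells with immune or endothelial UMIs other than S100a8.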

Additional observations from a re-analysis of the deposited data

Results flagged for a closer look

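Pooled over the other Stroma clusters, 1 of the 20 genes furthest apart, with both intervals clear of 0, and 2 lists, with a log2 ratio of at least 0.3 in size in both, ran opposite to Stroma6 between the progressed and untreated tumor, and none of these differences was tested. Other lists ran opposite below that limit, such as complement at 0.16 and -1.28 and the IGF axis at 0.18 and -0.63. Mt1 had a log2 ratio of 1.83 in Stroma6 and -0.45 in the other clusters pooled, although it was above 0 in each of the 5 other clusters compared singly, with an interval that spans 0 in Stroma8. The inflammatory fibroblast list had a log2 ratio of 0.38 in Stroma6 and -0.50 in the pool, with values of -0.32 in Stroma2, -0.20 in Stroma3, 0.37 in Stroma4, 0.38 in Stroma5 and -0.29 in Stroma8. The cell cycle list had a log2 ratio of -0.57 in Stroma6, where it rested on 54 untreated UMIs, and 0.38 in the pool.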

How the results depend on the processing

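No paired analysis was possible because each group held 1 tumor, and for the same reason no replicate could be left out. Alternatives that left 0 UMIs in either group gave no value for that gene or list. The Stroma6 share was 2.03% (untreated), 0.349% (regressed) and 25.9% (progressed) of all cells. Genes at least 2-fold higher and lower than the other Stroma clusters numbered 424 and 350 from 20 CPM, 4585 and 1721 with no filter, and 110 higher with equal weight per cluster. With no filter, a gene without Stroma6 UMIs is set to 3 UMIs and counts as higher by construction when it is rare in the other clusters. Between the tumors, genes at least 2-fold higher and lower numbered 275 and 370 from 20 CPM, and 864 and 7137 with no filter. There, a gene without untreated UMIs is set to 3 UMIs and counts as lower by construction when it is rare in progressed cells. The numbers were 386 and 606 without cells with immune or endothelial UMIs, and 319 and 443 after thinning. Fewer cells and UMIs were left in these last comparisons. Of gene lists, 2 were at least 2-fold above the other clusters, against 3 with TMM scaling and 4 without the largest member or by the median of members. The number was 1 with equal weight per cluster or without cells with at least 4 pericyte UMIs. Below the other clusters were 3 lists, against 1 when set against Stroma2. Between the tumors 3 were above, against 1 without cells with immune or endothelial UMIs, without the largest member or by the median, and 2 were below, against 5 without the largest member and 4 by the median.

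Of 95 named genes at least 2-fold apart between clusters and 62 between tumors, TMM scaling changed no direction. Signs turned with equal weight per cluster for Lox (-0.38), Dpt (-0.52), Ly6a (-1.13), C4b (-0.55) and En1 (-0.22). Against Stroma2 they turned for the adipogenic (0.82) and TGF-beta response (0.25) lists, Col6a5 (-1.08), Lpl (-0.14), Adamts12 (-0.55), Ccl11 (0.27), Ccl2 (2.23), En1 (-0.013), Apod (0.85), Dusp6 (1.03), C1ra (-0.27), C4b (-0.040), Igfbp6 (0.083), Hgf (-0.89), Col8a1 (3.06) and Hspb1 (0.90). Without cells with at least 4 pericyte UMIs Rgs5 turned to -1.47 between clusters, and Tinagl1 (0.26), Tagln (0.83), Tgfb3 (0.71) and Kcnj8 (0.10) between tumors. Rgs5 and Kcnj8 are among the genes by which those cells were picked. Without cells with immune or endothelial UMIs Isg15 (0.94), Ifit3 (2.01) and Vegfd (0.050) turned, with S100a8 not counted Pi16 (0.67), and after thinning Spry4 (0.083). Of the lists at least 2-fold apart, the adipogenic (0.84), TGF-beta response (0.30) and dermal (-0.24) lists turned without the largest member, and the adipogenic (0.61) and dermal (-0.045) lists by the median. Lists less than 2-fold apart, such as the MAPK target genes, are not counted here. The cause was not tested.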

Other observations

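Mlana, a melanosome gene of the melanocyte marker list, stood at 41.5 CPM (36.3 to 47.1, 236 UMIs in 153 of 1255 cells) in progressed Stroma6. It was at 1.01 CPM (12 UMIs) in the other progressed Stroma clusters and at 8.44 CPM (4 UMIs in 3 of 83 cells) in untreated Stroma6. The melanocyte genes Dct, Pmel and Tyr did not follow it in progressed Stroma6, where the highest of them was at 0.351 CPM. After thinning to 1000 UMIs, 4.32% of progressed Stroma6 cells held a Mlana UMI (3.26 to 5.60) against 0 of 332 macrophages (exact upper limit 1.10%). Gpnmb, also known from melanocytes and macrophages, was at 89.2 CPM over all 1255 progressed Stroma6 cells. Whether Mlana and Gpnmb lay in the same cells was not tested. These genes were chosen after their values had been seen, and the source of the Mlana UMIs was not tested.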
